A study of Mus musculus with 28 samples.

Results

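The 4 Hox clusters were examined for open chromatin during reprogramming of mouse fibroblasts to induced pluripotent stem cells. Members are the peaks of 28 ATAC-seq libraries that overlap 4 windows of the mm9 build: HoxA at chr6:52090000-52230000, HoxB at chr11:96040000-96240000, HoxC at chr15:102730000-102880000 and HoxD at chr2:74490000-74620000. Merging overlapping peaks gave 132 Hox regions of 172177 regions in the whole genome. HoxA held 33 of them, HoxB 40, HoxC 33 and HoxD 26. A library "called" a region when it had at least 1 peak in it. Regions are numbered along the chromosome within their cluster, so HoxA-12 is the region of that number counted from the low-coordinate end.

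Hox genes encode homeodomain transcription factors that give cells their position along the body axis. In each cluster the genes stand in the order of their numbers, and low-numbered genes are expressed further towards the head than high-numbered ones. Fibroblasts keep a Hox pattern that reflects the body site they came from, whereas in pluripotent cells the clusters are largely silent and carry Polycomb marks. Tet2 oxidises methylated cytosine at CpG sites, which are dense in many Hox promoters.

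ATAC-seq maps open chromatin with a transposase that cuts accessible DNA. All cells were Tet2-/-, carried OKSM, reprogramming factors switched on by doxycycline through rtTA, and came from embryos of day 12.5 (strain background V6.5 129XBI/6 in the labels). The MEF group, day 0, was labelled untreated mouse embryonic fibroblasts with no isolation step. The other 6 groups were taken at day 5 or day 10 and had received by pMXs retrovirus an empty vector, wild-type Tet2 (Tet2-WT) or the stalling mutant Tet2-E. They grew on feeder fibroblasts treated with Mito-C, in medium with LIF, PD0325901, CHIR99021 and doxycycline, and were flow sorted on SSEA1-RFP, SSEA1 being a surface marker of pluripotent mouse cells. Each of the 7 groups held 4 libraries of 75000 cells. The MEFs therefore differ from the later groups in sorting, medium and vector as well as in day, and these cannot be told apart. The series' design text, however, names day 0 fibroblasts among the transduced cells. The label of untreated cells was followed here, so the difference in vector is uncertain. The labels do not say whether replicates were separate cultures or embryos, so the spread behind each p-value is that among libraries and may be technical. The labelled cell type was not checked against marker genes, because an mm9 annotation was not used here. For the same reason regions are not assigned to genes. Each window was instead divided at its midpoint into a low-numbered and a high-numbered side, from the order of the Hox genes in RefSeq: the low-numbered side runs towards Hoxa2, Hoxb1, Hoxc4 or Hoxd1, and the high-numbered side towards the gene with number 13.

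Promoter sequences of 22 of the 38 Hox genes, running from 250 bases before to 50 bases after the gene start, were found in a RefSeq table of GRCm38.p6. Of the 22, 9 belong to HoxA, 9 to HoxD, 3 to HoxB and 1 to HoxC, so the last 2 clusters are barely covered. The 22 promoters held a median of 13.5 CpG sites (4 to 45), against 7 over 27018 genes. CG occurred 10 times or more in 15 of the 22 (68.2%) and in 44.0% of all promoters. The richest and one of the poorest are shown to give the range of CpG number among these promoters, with each CpG in capitals. Which of these sites are methylated, and so open to Tet2, was not measured. Hoxa13 is the last gene of HoxA, with a role in limb and genital development. Hoxd4 belongs to the low-numbered side of HoxD, and 2 other promoters, Hoxa9 and Hoxd11, had as few CpG sites.
Hoxa13: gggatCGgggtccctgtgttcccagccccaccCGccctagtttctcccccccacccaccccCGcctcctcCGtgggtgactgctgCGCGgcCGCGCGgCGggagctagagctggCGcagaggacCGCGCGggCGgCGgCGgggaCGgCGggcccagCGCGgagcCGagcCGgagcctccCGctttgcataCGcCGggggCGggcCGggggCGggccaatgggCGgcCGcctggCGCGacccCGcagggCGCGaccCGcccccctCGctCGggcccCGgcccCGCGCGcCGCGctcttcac
Hoxd4: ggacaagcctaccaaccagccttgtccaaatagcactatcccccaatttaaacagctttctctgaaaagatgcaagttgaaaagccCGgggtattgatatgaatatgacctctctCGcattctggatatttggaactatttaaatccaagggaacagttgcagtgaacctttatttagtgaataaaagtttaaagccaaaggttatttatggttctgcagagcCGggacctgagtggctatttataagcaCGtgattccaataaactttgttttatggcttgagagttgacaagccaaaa
The Hoxa13 promoter held 45 CpG sites at a GC content of 81%, and the Hoxd4 promoter held 4 at 39.7%. Since the peaks are on mm9, no region was matched to either promoter.

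More of the Hox regions were called in a single library than of the regions of the genome at large, and their median fold was lower. Of the 132 regions, 66 (50%) were called in 1 library alone, against 36.1% of all regions. Of the 66 called in 2 or more libraries, 28.8% were called in at least 14, close to the 29.3% of the genome, and the share was 44.4% in HoxA. They had a median width of 245.5 bp, against 278 bp over 109954 such regions of the genome. Their median fold, the authors' ratio of a peak's pileup to its local background, was 5.73, against 6.17 over all. The highest median fold of a Hox region was 8.16, where the genome's highest was 36.3. Together the Hox regions called in 2 or more libraries took up 4.37% of the HoxA window, 2.40% of HoxB, 2.30% of HoxC and 2.73% of HoxD. The longest stretch without such a region was 40.6 kb, in the HoxB window on its high-numbered side.

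A group of 3 HoxA regions were open in every library. HoxA-5 (chr6:52108145-52109042) was the widest Hox region at 898 bp, with a median fold of 7.10. HoxA-9 (chr6:52122418-52123009) had a median fold of 7.67, and HoxA-19 (chr6:52154195-52154718) had the highest Hox value, 8.16. Peak summits, the highest points of the peaks, spread over 643 bp among libraries in HoxA-5, against 160 bp in HoxA-9 and 150 bp in HoxA-19. Calls of HoxA-5 therefore need not mark the same site in each library. All 3 lay on the low-numbered side of HoxA, 18.6, 32.7 and 64.5 kb from that end of the window. No region of HoxB, HoxC or HoxD was called in all 28 libraries. The 3 are 9.09% of the HoxA regions and 2.27% of all Hox regions, and over the genome 7740 regions (4.50%) were called in all 28. The widest regions of the other clusters were called unevenly. HoxB-18 (chr11:96132999-96133454, 456 bp) was called in 0 of 4 MEF, 4 of 12 day 5 and 8 of 12 day 10 libraries. HoxD-25 (chr2:74600791-74601362, 572 bp) was called in 2 of 4, 5 of 12 and 6 of 12.

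**Figure D1:**
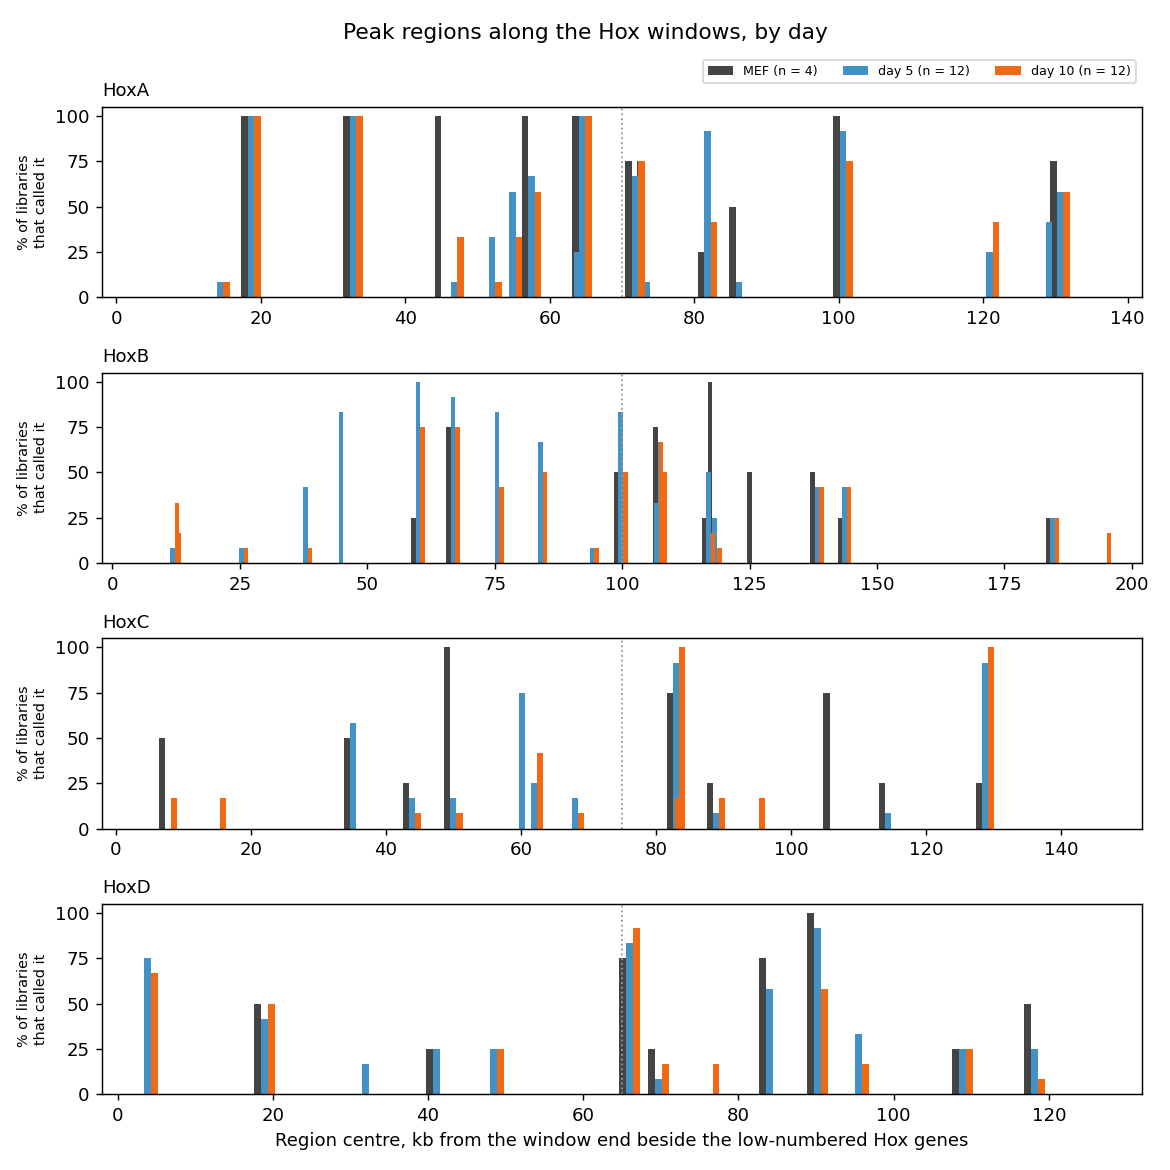
Each bar gives the percent of libraries (y axis) that called a Hox region, by day, at the distance of its centre from the low-numbered end of the window in kb (x axis). Only the 66 regions called in 2 or more libraries are drawn and the dotted line is the window's midpoint; HoxA shows 3 regions at 100% on all days, all left of it.

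The balance of open chromatin between the sides changed in HoxB and in HoxC, in opposite directions. From MEFs to day 5 it changed in favour of the low-numbered side of HoxB, towards Hoxb1, and part of that change remained at day 10. In HoxC the balance changed in favour of the high-numbered side, towards Hoxc13, most at day 10. There, in the deposited lists, the coverage of the low-numbered side went down while the mean of the high-numbered side stayed within the spread among libraries. Both balances were measured within each library as the percent of the low-numbered side covered by peaks minus that of the high-numbered side, in percentage points.

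In the HoxB window the low-numbered side was covered to 0.436%, 0.158%, 0.439% and 0.311% in MEF replicates 1 to 4. At day 5 the 12 libraries ranged from 0.629% to 1.21% with a median of 0.884%, and at day 10 from 0.162% to 0.869% with a median of 0.542%. Every day 5 library thus lay above every MEF library on this side, whereas day 10 libraries overlapped both. The high-numbered side was covered to 0.942%, 0.242%, 0.818% and 0.654% in MEFs, and to medians of 0.338% at day 5 and 0.381% at day 10.

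The low-minus-high difference of HoxB was -0.328 ± 0.177 points (SD) over the 4 MEF libraries, 0.553 ± 0.280 over the 12 of day 5 and 0.206 ± 0.207 over the 12 of day 10. It was negative in 4 of 4 MEF libraries, between -0.506 and -0.0840, and positive in 12 of 12 day 5 libraries, between 0.133 and 0.988. The change of 0.881 points from MEFs to day 5 passed an exact permutation test over libraries (adjusted p = 0.0033 over 12 tests of sides), and so did the change of 0.534 points to day 10 (adjusted p = 0.0044). From day 5 to day 10 the difference fell by 0.346 points (exact permutation within vectors, adjusted p = 0.00574).

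All 11 regions of the low-numbered side of HoxB called in 2 or more libraries were called in a larger share of day 5 than of MEF libraries. On the high-numbered side 3 of 9 were called in a larger share and 4 in a smaller one. These counts describe the same libraries as the coverage test and are no further evidence. The minimum of 2 libraries also shapes them. Of the 20 HoxB regions that met it, on both sides, 10 had no MEF call, and such a region cannot fall from MEFs. Regions called in 1 MEF library alone were left out, among them HoxB-25, HoxB-33 and HoxB-39 on the low-numbered side. HoxB-27 (chr11:96172958-96173391), called in 3 of 4 MEF, 11 of 12 day 5 and 9 of 12 day 10 libraries, was the most often called of the 11. HoxB-19 (chr11:96140176-96140392), close to the midpoint, was called in 2 of 4, 10 of 12 and 6 of 12. HoxB-24 (chr11:96155923-96156123) was called in 0 of 4, 8 of 12 and 6 of 12. These 3 were chosen after their values were seen.

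In the HoxC window the low-numbered side was covered to 1.94%, 0.621%, 0.647% and 0.717% in MEF replicates 1 to 4. The day 5 libraries ranged from 0.116% to 0.817% with a median of 0.501%, and the day 10 libraries from 0% to 0.60% with a median of 0.107%. Every day 10 library lay below every MEF library, and MEF replicate 1 stood far above the other 3. On the low-numbered side the means were 0.981% ± 0.640 (SD, n = 4) in MEFs, then 0.481% ± 0.240 and 0.156% ± 0.191 in the 12 libraries of each later day. On the high-numbered side they were 0.561% ± 0.442, 0.516% ± 0.137 and 0.592% ± 0.185, and the medians were 0.369%, 0.484% and 0.555%. The single sides were not tested.

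The low-minus-high difference of HoxC was 0.420 ± 0.201 points (SD) over the 4 MEF libraries, -0.0351 ± 0.282 over the 12 of day 5 and -0.436 ± 0.270 over the 12 of day 10. It was positive in 4 of 4 MEF libraries and negative in 12 of 12 day 10 libraries. It fell by 0.856 points from MEFs to day 10, which passed the exact permutation test (adjusted p = 0.0033), and it fell by 0.401 points from day 5 to day 10 (exact permutation within vectors, adjusted p = 0.00574). From MEFs to day 5 it fell by 0.455 points, which passed the exact permutation test as well (adjusted p = 0.0223), but not without MEF replicate 1 (change of -0.355 points, adjusted p = 0.0908). HoxC-11 (chr15:102796923-102797199), on the high-numbered side, was called in 3 of 4 MEF, 11 of 12 day 5 and 12 of 12 day 10 libraries, and was chosen after its values were seen.

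The HoxD window was covered mostly on its high-numbered side in MEFs, at 1.68%, 0.928%, 1.30% and 1.26% in the 4 libraries against medians of 0.776% at day 5 and 0.438% at day 10. Its low-minus-high difference rose from -1.04 ± 0.502 points (SD) over the 4 MEF libraries to -0.424 ± 0.210 over the 12 of day 5 and -0.196 ± 0.308 over the 12 of day 10. Both rises passed the exact permutation test (adjusted p = 0.00942 and 0.00574), and the step from day 5 to day 10 did not (0.229 points, adjusted p = 0.0579). In HoxA the difference was 1.16 ± 0.284, 1.20 ± 0.316 and 1.04 ± 0.350 points at the 3 times, and no change passed (lowest adjusted p = 0.335 in exact permutation tests).

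The libraries differ in depth and in list length between days, so the sides were also compared in lists of equal length. The cut makes length equal and not depth, which was about the same in MEFs (background pileup 0.503) and at day 10 (0.522). It takes the weakest peaks, and most of them from MEFs, whose lists held 55546 peaks on average against 37655 at day 10. With each list cut to its 27809 strongest peaks, HoxB kept its change of sides from MEFs to day 5 (adjusted p = 0.00659) and to day 10 (adjusted p = 0.0363) in the exact permutation test. HoxC kept its own from MEFs to day 10 and from day 5 to day 10 (exact permutation, adjusted p = 0.0412 each). In these lists, however, mean coverage of the whole HoxC window was 0.152% in MEFs, 0.276% at day 5 and 0.278% at day 10. A fall of the low-numbered side beside a steady high-numbered side thus describes the deposited lists, and not the change from MEFs to day 10 in equal lists. The other 4 changes that had passed did not pass with equal lists, at adjusted p of 0.0663 for HoxB from day 5 to day 10, 0.560 for HoxC from MEFs to day 5, and 0.227 and 0.234 for HoxD.

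**Figure D2:**
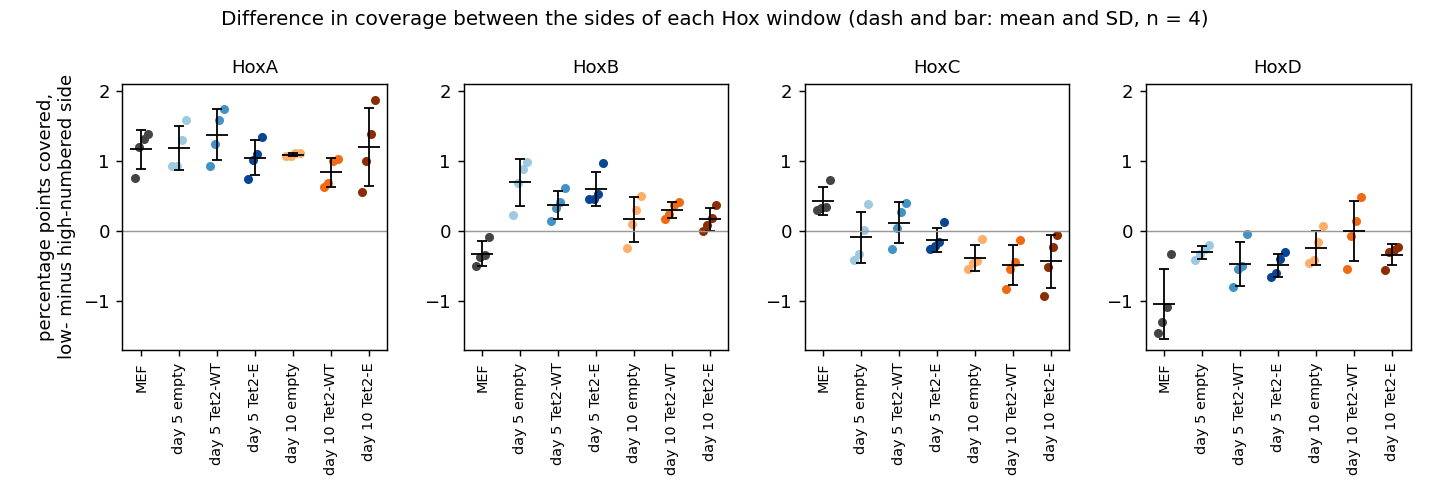
Points are libraries and give the percent of the low-numbered side covered by peaks minus that of the high-numbered side, in percentage points (y axis), by group (x axis), with mean and SD. In HoxB the 4 MEF libraries are below 0 and the 12 day 5 libraries above it, and in HoxC the 4 MEF libraries are above 0 and the 12 day 10 libraries below it.

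Single regions were tested over the whole genome by the number of libraries that called them, 4 MEF against 12 later libraries in Fisher's exact test. Here gained and lost mean a rise or fall in that share with a Benjamini-Hochberg adjusted p under 0.05 over all regions tested. From MEFs to day 5, 3 of 55 Hox regions tested were gained, 5.45%, where the background over the genome was 9.81%. All 3 lay on the low-numbered side of HoxB. Another 3 of 55 were lost, 5.45% against a background of 16.1%. From MEFs to day 10, 1 of 53 was gained (1.89%, background 5.66%) and 6 were lost (11.3%, background 22.6%). The median change in share of the Hox regions was 0 percentage points in both, against 0 and -8.33 over all regions. The other 77 and 79 Hox regions were called in fewer than 2 of the compared libraries and were not tested.

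Of the Hox regions, HoxA-12 most cleanly separated MEFs from reprogramming cells. It lies at chr6:52135251-52135565, 45.4 kb from the low-numbered end of HoxA, between HoxA-9 and HoxA-19, which stayed called throughout. The authors' fold of its peak was 4.89, 6.29, 5.86 and 7.61 in MEF replicates 1 to 4, and none of the 24 later libraries called it. The loss passed Fisher's exact test at day 5 (adjusted p = 0.00449) and at day 10 (adjusted p = 0.00374), and passed whichever single library was left out. Among the strongest 27809 peaks of each library its calls were too few to pass (Fisher's exact test, adjusted p = 0.134 and 0.137). Such a loss was common in the genome. Of 27904 regions called in 4 of 4 MEF libraries, 23.9% were called in no day 5 library. No day 10 library called 38.6% of them. In the Hox clusters it was 1 of 9 (11.1%) on either day, a difference that was not tested.

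The other lost regions were spread over the 4 clusters. HoxC-6 (chr15:102773717-102773947) had peaks in 3 of 4 MEF libraries and 0 of 24 later ones (adjusted p = 0.0311 at day 5 and 0.0276 at day 10 in Fisher's exact test). HoxC-21 (chr15:102829700-102830244), the widest HoxC region at 545 bp, was called in 4 of 4 MEF, 2 of 12 day 5 and 1 of 12 day 10 libraries (Fisher's exact test, adjusted p = 0.0318 and 0.0156). HoxB-13 (chr11:96121656-96121975) was called in 4 of 4 MEF, 3 of 12 day 5 and 1 of 12 day 10 libraries and was lost at day 10 (Fisher's exact test, adjusted p = 0.0156). HoxA-21 (chr6:52163242-52163569) went from 3 of 4 to 1 of 12 and 0 of 12, and HoxD-12 (chr2:74535753-74536163) from 3 of 4 to 7 of 12 and 0 of 12. Both were lost at day 10 in Fisher's exact test (adjusted p = 0.0276 each). With lists of equal length HoxB-13 did not pass (Fisher's exact test, adjusted p = 0.137), and HoxC-6, HoxC-21, HoxA-21 and HoxD-12 were called too seldom to be tested. Whether day 5 and day 10 differed at these regions was tested apart, and HoxD-12 did not pass (7 against 0 of 12, adjusted p = 0.136 in the exact conditional test).

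The gained regions were 3 in HoxB and 1 in HoxC. HoxB-28 (chr11:96179824-96180251) was called in 1 of 4 MEF libraries, 12 of 12 at day 5 and 9 of 12 at day 10 (adjusted p = 0.0311 at day 5 in Fisher's exact test). HoxB-29 (chr11:96195005-96195330) was called in 0 of 4, 10 of 12 and 0 of 12, and HoxB-26 (chr11:96164428-96164672) in 0 of 4, 10 of 12 and 5 of 12 (Fisher's exact test, adjusted p = 0.0318 each at day 5). HoxC-1 (chr15:102751086-102751427), 128.7 kb from the low-numbered end of HoxC, was called in 1 of 4, 11 of 12 and 12 of 12 (Fisher's exact test, adjusted p = 0.0276 at day 10). Its fold ranged from 4.80 to 10.5 over the 24 libraries that called it. With lists of equal length HoxC-1 kept its gain at day 10 (Fisher's exact test, adjusted p = 0.00401). The 3 HoxB gains did not keep theirs (adjusted p of 0.463, 0.463 and 0.773 for HoxB-28, HoxB-29 and HoxB-26 in Fisher's exact test). They also did not pass where a peak had to cover 50% of the region (1, 0.440 and 0.440) or to have a -log10 q of at least 5 (0.159, 0.0669 and 0.198). In such equal lists a different HoxB region was gained at day 5, HoxB-19 (0 of 4 against 10 of 12, Fisher's exact test, adjusted p = 0.0314).

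With 1 MEF library left out, HoxA-12 on both days and HoxB-13 and HoxC-21 at day 10 kept their calls whichever it was. HoxB-26, HoxB-29 and HoxC-21 at day 5 lost theirs without any of the 4, HoxB-28 and HoxD-12 without MEF replicate 1, 2 or 4, HoxC-1 and HoxC-6 without 1, 2 or 3, and HoxA-21 without 1, 3 or 4 (adjusted p of 0.0742 to 0.0925).

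From day 5 to day 10, 0 of 60 Hox regions were gained (background 0.144%) and 2 were lost, 3.33% against a background of 1.00%. No Hox region reached an unadjusted p under 0.05 in the gained direction, and 6 did in the lost direction, in the exact conditional test within vectors. HoxB-29 fell from 10 of 12 to 0 of 12 libraries (exact conditional test, adjusted p = 0.0212). HoxC-17 (chr15:102819702-102820052) fell from 9 of 12 to 0 of 12 (exact conditional test, adjusted p = 0.0381), and no MEF library called it. Both regions were thus seen at day 5 alone. At day 5 HoxB-29 was called in 4 empty vector, 2 Tet2-WT and 4 Tet2-E libraries, and HoxC-17 in 2, 4 and 3. Day 5 was also the deepest time, and neither loss passed with lists of equal length (exact conditional test, adjusted p = 0.232 and 0.349).

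**Figure D3:**
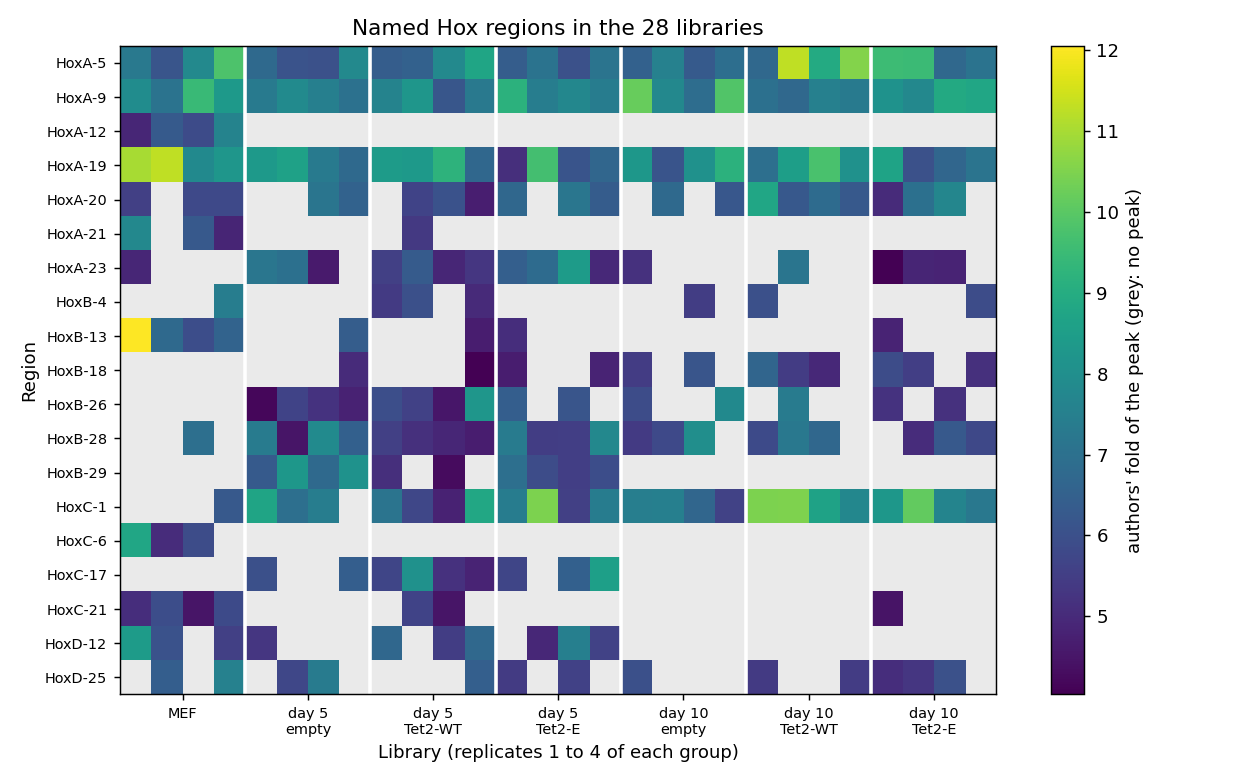
Colour gives the authors' fold of the peak in each named Hox region (y axis) and each of the 28 libraries (x axis), and grey means no peak. HoxA-12 is coloured in the 4 MEF libraries only, HoxB-29 and HoxC-17 in day 5 libraries only, and HoxA-5, HoxA-9 and HoxA-19 in all 28.

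MEF peaks in the Hox windows were partly kept. Of the 9 Hox regions called in 4 of 4 MEF libraries, 6 were in HoxA and 1 in each other cluster. Day 5 libraries called on average 5.75 (empty vector), 6.50 (Tet2-WT) and 5.50 (Tet2-E) of them, and day 10 libraries 4.75, 5.00 and 5.50. These are 52.8% to 72.2% of the 9, where the same groups called 44.7% to 56.0% of 27904 such regions of the genome, a difference that was not tested. Another 28 Hox regions were called in 2 or more libraries and in 0 of 4 MEF libraries. Of these 28, 0 were called in 12 of 12 libraries of either later day. Over the genome, 12.1% of 45019 such regions were at day 5 and 5.20% at day 10, a difference that was not tested.

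In the deposited lists the total length of called peaks in the Hox windows was lower at day 10 than in MEFs and at day 5. With lists of equal length neither fall remained, as given below. Peaks covered 1.32%, 0.694%, 0.824% and 0.824% of the 4 windows in MEF replicates 1 to 4. The 12 day 5 libraries ranged from 0.563% to 1.03% (median 0.735%) and the 12 day 10 libraries from 0.390% to 0.807% (median 0.541%). The groups overlapped, and the means were 0.916% ± 0.278 (SD, n = 4), 0.766% ± 0.156 and 0.555% ± 0.119 (SD, n = 12 each). The fall passed from MEFs to day 10 (adjusted p = 0.0110 over 30 tests) and from day 5 to day 10 (adjusted p = 0.0128), and not from MEFs to day 5 (adjusted p = 0.443), in exact permutation tests.

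HoxA was the most covered window throughout, at 1.80% ± 0.336 (SD) in the 4 MEF libraries, 1.40% ± 0.297 in the 12 of day 5 and 1.08% ± 0.190 in the 12 of day 10. Each MEF library (1.59% to 2.30%) lay above each day 10 library (0.738% to 1.51%). HoxD fell from 0.769% ± 0.129 in MEFs to 0.612% ± 0.255 and 0.376% ± 0.142, and its MEF and day 10 libraries did not overlap either. Both passed from MEFs to day 10 (adjusted p = 0.00824 each in exact permutation tests), and HoxA also from day 5 to day 10 (adjusted p = 0.0391). HoxB (0.50%, 0.627% and 0.437%) and HoxC (0.771%, 0.499% and 0.374%) passed in no contrast of days (lowest adjusted p = 0.0618 in exact permutation tests). Peaks per library in the 4 windows numbered 29.5 ± 7.85 (SD) in the 4 MEF libraries, 30.6 ± 6.57 in the 12 of day 5 and 23.9 ± 3.99 in the 12 of day 10, and no contrast of peak numbers passed (lowest adjusted p = 0.260 in exact permutation tests).

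**Figure D4:**
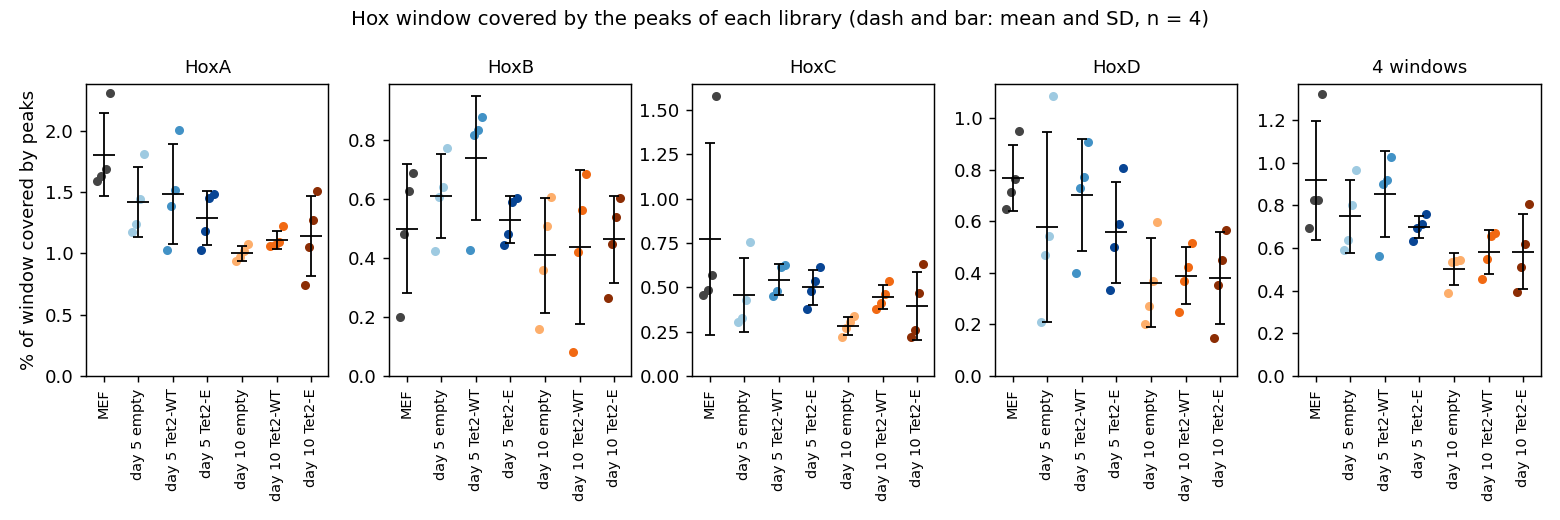
Points are libraries and give the percent of each Hox window, and of the 4 windows together, covered by peaks (y axis), by group (x axis), with mean and SD of the 4 libraries. In HoxA and HoxD the 4 MEF libraries stand above all 12 day 10 libraries.

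The mean length of the peak lists went down with the coverage at both steps, while depth was lower at day 10 than at day 5 and about the same as in MEFs. The background pileup, the number of fragments expected at a position and a measure of relative depth, was 0.503 ± 0.113 (SD) in the 4 MEF libraries, 0.865 ± 0.0731 in the 12 of day 5 and 0.522 ± 0.115 in the 12 of day 10. Lists held 55546, 49831 and 37655 peaks on average. Across the 12 day 10 libraries, coverage of the Hox windows followed the background pileup (Pearson r = 0.968 and Spearman rho = 0.958, permutation p = 1e-05 each, the smallest possible, adjusted p = 2e-05 over 2 relations). Leaving out the 2 libraries with the most extreme background gave r = 0.924. Both values also fell from replicate 1 to replicate 4 with each vector, so the 12 libraries may not be independent in this test. At day 5 no such relation was seen in 12 libraries (r = -0.215, permutation p = 0.516, adjusted p = 0.516; rho = -0.189, permutation p = 0.557, adjusted p = 0.557), nor with the 2 most extreme left out (r = -0.207). With lists of 27809 peaks each, coverage was 0.387% in MEFs, 0.453% at day 5 and 0.415% at day 10, and neither fall remained (change of 0.0284 points from MEFs to day 10, adjusted p = 0.894, and of -0.0372 points from day 5 to day 10, adjusted p = 0.504, in exact permutation tests). In such lists the number of Hox peaks rose, by 5.00 from MEFs to day 5 and 6.50 to day 10 (exact permutation, adjusted p = 0.0275 each).

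**Figure D5:**
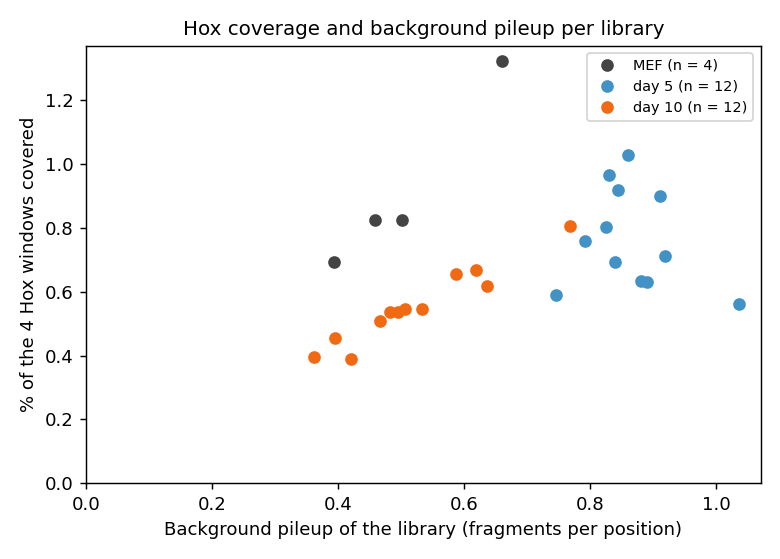
Each point is a library, with its background pileup in fragments per position (x axis) and the percent of the 4 Hox windows covered by its peaks (y axis), by day. Day 10 libraries line up from 0.390% to 0.807% while day 5 libraries do not follow the x axis.

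The windows next to the clusters, of equal length, did not all move alike. Beside the low-numbered end of HoxA, the flank was covered to 0.605% ± 0.273 (SD) in the 4 MEF libraries, 1.25% ± 0.120 in the 12 of day 5 and 0.887% ± 0.20 in the 12 of day 10, while HoxA itself went from 1.80% to 1.40% and 1.08%. Beside the low-numbered end of HoxB the flank went from 0.411% to 0.201% and 0.195%, while the low-numbered side of HoxB rose. Beside the high-numbered ends, that of HoxA went from 0.352% to 0.169% and 0.209%, and that of HoxB from 1.04% to 1.12% and 1.13%. Both flanks of HoxC and of HoxD fell as their windows did. Those of HoxC went from 1.14% to 0.538% (low-numbered end) and 0.490% to 0.260% by day 10, and those of HoxD from 0.493% to 0.148% (low-numbered end) and 0.560% to 0.328%. These flanks are given as a description and were not tested.

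The clusters also differed from one another in how many percentage points their coverage changed by, as far as the deposited lists go. The change from MEFs to day 10 differed in 4 of 6 pairs of clusters and that to day 5 in 2 of 6 (exact permutation tests, adjusted over 18). The largest was HoxA against HoxB, whose gap was 1.30 points in MEFs and changed by -0.535 at day 5 and -0.657 at day 10 (exact permutation, adjusted p = 0.0247 each). No pair differed from day 5 to day 10 (exact permutation, lowest adjusted p = 0.183). With lists of equal length no pair passed at any time, and without MEF replicate 1, 2 or 4 the pair of HoxA and HoxB did not pass (exact permutation, adjusted p = 0.0593 to 0.0791). The points are absolute, and HoxA started from a higher coverage. It went from 1.80% to 1.08% by day 10, HoxC from 0.771% to 0.374% and HoxD from 0.769% to 0.376%. On the log2 scale no more than 1 pair passed from MEFs to either later day.

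Neither form of Tet2 gave a detectable difference in the Hox clusters. Tet2-WT is the active enzyme, and Tet2-E is the mutant called stalling in the labels. Of the Hox regions tested, 0 of 52 passed for Tet2-WT against the empty vector, 0 of 50 for Tet2-E against the empty vector and 0 of 53 for Tet2-E against Tet2-WT, with a background of 0% in each (exact conditional test within days). At an unadjusted p under 0.05 the count was also 0 in each, and the smallest unadjusted p was 0.257. The 8 against 8 libraries can give no p below 0.000408, so a region would have passed only if at least 580 to 606 regions of the genome had reached that p. A change at a few Hox regions alone could not have been called.

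The region with the smallest p for Tet2-E against the empty vector was HoxA-23 (chr6:52171653-52172065). It was called at day 5 in 3 empty vector, 4 Tet2-WT and 4 Tet2-E libraries of 4, and at day 10 in 1, 1 and 3. For Tet2-WT it was HoxA-20 (chr6:52161638-52161888), 1 of 4 with that p, in 2, 3 and 3 libraries at day 5 and 2, 4 and 3 at day 10. For the 2 forms of Tet2 it was HoxB-4 (chr11:96055480-96055658), 1 of 2, in 0, 3 and 0 libraries at day 5 and 1 of each vector at day 10.

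Coverage of the 4 windows at day 5 was 0.802%, 0.590%, 0.965% and 0.635% in the empty vector libraries. The Tet2-WT libraries had 0.563%, 0.899%, 1.03% and 0.919%, and those of Tet2-E 0.694%, 0.712%, 0.759% and 0.632%. The 3 groups overlapped. At day 10 it was 0.545%, 0.537%, 0.535% and 0.390% in the empty vector libraries. The Tet2-WT libraries had 0.669%, 0.656%, 0.546% and 0.454%, and those of Tet2-E 0.807%, 0.617%, 0.509% and 0.395%, again with overlap. Over both days Tet2-WT exceeded the empty vector by 0.0917 points and Tet2-E by 0.0157 points (adjusted p = 0.443 and 0.906 in exact permutation tests). The vector difference nearest to the threshold was that of HoxC for Tet2-WT against the empty vector, 0.495% ± 0.0896 against 0.368% ± 0.168 (SD, n = 8 each, adjusted p = 0.145 in the exact permutation test). It passed without replicate 1 of the day 5 empty vector (difference of 0.182 points, exact permutation, adjusted p = 0.00816). The change from day 5 to day 10 did not differ between vectors in any window (lowest adjusted p = 0.926 over 15 exact permutation tests).

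The change of sides was seen with each vector. In HoxB the low-minus-high difference at day 5 was 0.692 ± 0.337 points in empty vector libraries, 0.369 ± 0.196 in those with Tet2-WT and 0.597 ± 0.247 in those with Tet2-E (SD, n = 4 each), against -0.328 in MEFs. In HoxC at day 10 it was -0.390 ± 0.184, -0.485 ± 0.287 and -0.435 ± 0.380 in the same order, against 0.420 in MEFs. These differences between vectors were not tested.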

How the data were processed

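ATAC-seq was deposited as 1 list of MACS2 peaks per library, so the authors called peaks per library. The submitters' processing notes name Bowtie2, SAMtools, bedtools, MACS2 and the build mm9. Tool versions, read filters and any shift for the transposase are not given in the sources used. The deposited lists give for each peak a score, a fold (the ratio of summit pileup plus 1 to local background plus 1) and the authors' -log10 p and -log10 q. The lowest -log10 q was just above 2, a q of 0.01. Folds of different libraries were set side by side as a description and were not tested. The cut at a -log10 q of 5 was the same for all lists, whatever their depth.

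Peaks on 20 chromosomes were kept (0.350% of peaks lay elsewhere), and those overlapping by 1 bp or more in any of the 28 libraries were merged. A region entered a test with 2 or more calling libraries among those compared, and tests ran over the whole genome, by Fisher's exact test for MEFs against day 5 or day 10, and by an exact conditional test within vectors (days) or within days (vectors). P-values are 2-sided and adjusted after Benjamini and Hochberg, and the threshold was 0.05. Percent of a window covered, numbers of peaks and differences between clusters or sides were compared by 2-sided exact permutation tests over libraries. Read totals were not used. Fold and p gave whole-number pileups for 100% of peaks in each library (tolerance 0.0002 in -log10 p), and the commonest background served as relative depth, which sets how weak a peak a library can call. No 2 lists were identical. The region and permutation tests were tested on simulated data. Alternatives were stricter peaks (-log10 q of at least 5), 50% cover, lists of equal length, other library minimums, a log scale with a pseudocount of 1, shares of the list, replicates left out and a replicate block. Leaving out single libraries was added after the data were seen.

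The members, windows and lists were chosen with earlier results of these data known. Named are all regions past the threshold in a comparison of days (up to 6 per cluster and direction), up to 3 per cluster called in all libraries, the widest of each cluster and the one with the smallest p for each pair of vectors. Gene markers and Hox cofactors were not analysed here for want of an mm9 annotation. Python 3.11.15, NumPy 2.4.6, pandas 2.3.3, SciPy 1.17.1 and Matplotlib 3.10.9 were used.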

Additional observations from a re-analysis of the deposited data

Results flagged for a closer look

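A Dixon test flagged 7 of 70 groups of 4 libraries. In each, 1 library stood apart from the other 3 by more of the group's range than the test allows. The chance rate of about 1 in 20 holds for independent, continuous values. These groups overlap, and the peak counts are small whole numbers with ties, so 7 of 70 cannot be set against that rate. MEF replicate 1 had the highest coverage of HoxA (2.30%, others 1.59% to 1.69%) and of HoxC (1.58%, others 0.455% to 0.569%). Tet2-WT replicate 1 at day 5 had the lowest coverage of HoxB (0.426%, others 0.817% to 0.877%) and the fewest HoxD peaks (4, others 6). Replicate 4 of the empty vector at day 10 had the lowest coverage of the 4 windows (0.390%, others 0.535% to 0.545%). Tet2-WT replicate 4 at day 10 had 6 HoxC peaks, where the others had 4. Tet2-E replicate 1 at day 10 had 33 peaks in the 4 windows, where the others had 21 to 23.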

How the results depend on the processing

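Cutting every list to 27809 peaks changed most. From MEFs to day 5, 1 region was gained (HoxB-19, none of the 3 reported) and 0 were lost. It left 0 lost from MEFs to day 10 and 0 lost from day 5 to day 10, 0 pairs of clusters from MEFs to day 5 or day 10, and 1 cluster with a change of sides from MEFs to day 5 and 1 from day 5 to day 10. Coverage of the 4 windows then changed by 0.0284 points from MEFs to day 10, the opposite direction, and by -0.0372 from day 5 to day 10, while Hox peaks rose by 5.00 and 6.50 from MEFs to day 5 and day 10. The gap between HoxA and HoxD, which had narrowed by day 10, widened by 0.0681 points. As a share of the list, coverage of the 4 windows rose by 0.00656 percent of the covered length from MEFs to day 10 and by 0.00266 from day 5 to day 10, and that of HoxA by 0.00287 and 0.00305. The cause was not tested.

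With 50% cover 1 region was gained at day 5 (HoxC-1, none of the 3 reported), 0 at day 10 and 0 lost from day 5 to day 10. The lost regions changed as well: HoxC-6 and HoxC-21 passed on neither day. HoxD-11 passed on both days, HoxA-21 also at day 5, and HoxA-16 and HoxA-28 at day 10. With a -log10 q of at least 5, 1 was gained at day 5 (HoxB-19, again none of the 3) and 0 at day 10, 1 and 2 pairs of clusters passed at day 5 and day 10, and Hox peaks fell by 7.25 from day 5 to day 10, past the threshold. Among the losses, HoxC-6 passed on neither day, HoxC-21 not at day 5 and HoxA-21 not at day 10, while HoxB-13 passed also at day 5. From day 5 to day 10 HoxA-23 was lost and HoxC-17 was not. Testing regions in at least 4 libraries left 3 lost at day 10, and testing those in at least 1 left 1 lost from day 5 to day 10. On the log2 scale 1 and 0 pairs of clusters passed.

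Replicate numbers did not pair day 5 with day 10 libraries. Same-numbered libraries of these days deviated together with correlations of only -0.0055 to 0.0174. They did order the day 10 libraries by depth. With each vector, background pileup there fell from replicate 1 to replicate 4. It went from 0.506 to 0.420 (empty vector), 0.619 to 0.395 (Tet2-WT) and 0.768 to 0.361 (Tet2-E). Coverage of the 4 windows fell in the same order at day 10, which was not tested. A replicate block left 0 gained and 1 lost at day 5, 0 gained and 3 lost at day 10, 0 lost from day 5 to day 10, and 0 pairs of clusters at either day.

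Leaving out replicates or single libraries gave 0 to 6 gained (6 without replicate 4 of the day 5 empty vector) and 1 to 4 lost at day 5, 0 to 1 gained and 2 to 6 lost at day 10, and 0 to 2 lost from day 5 to day 10. Pairs of clusters numbered 0 to 3 at day 5 and 0 to 5 at day 10, and clusters with a change of sides 1 to 3 at day 5 and 1 to 3 from day 5 to day 10. Coverage of the 4 windows changed by -0.452 to -0.226 points from MEFs to day 10 and by -0.277 to -0.153 from day 5 to day 10. The sides were compared in only some of the alternatives. In all of those the change of sides passed for HoxB from MEFs to day 5 and day 10. It also passed in them for HoxC from MEFs to day 10 and from day 5 to day 10. The sides were not compared as shares of the list. The alternatives of region cover and library minimums concern the tests of single regions alone. Depth limits all counts of weak peaks, since a region not called may be open below the threshold of its library.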
